A study of Homo sapiens with 40 samples.

Results

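The cytoplasmic ribosomal protein genes encode the protein components of the ribosome that translates nuclear-encoded messenger RNA. Members were the rows of the count table whose symbol is RPL or RPS and a number, with or without A, L, X, AL or L1 after it, and RPLP0, RPLP1, RPLP2 and RPSA. The rule took 83 of 12655 genes, 32 named for the small 40S subunit and 51 named for the large 60S subunit, and left out 137 rows with ribosomal protein pseudogene symbols. All 83 members passed edgeR's default expression filter in both cell lines. The rule uses symbols and no measured value.

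In the ribosome the small subunit reads the messenger RNA and the large subunit joins the amino acids. Most ribosomal protein messages begin with a cytosine followed by a run of pyrimidines, the 5′ terminal oligopyrimidine (TOP) tract, through which the growth kinase mTORC1 and the RNA-binding protein LARP1 control their translation and stability. The receptor of epidermal growth factor (EGF) signals to growth through the kinases MEK and ERK and through PI3K and mTORC1.

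RNA was measured in spheroids of FaDu, a line from a hypopharyngeal squamous tumour, and of Kyse30, a line from an oesophageal squamous cell carcinoma, seeded with 8000 and 10000 cells. Both lines carried Dendra2, whose fluorescence turns from green to red on illumination, and are labelled wildtype. Each line had 5 groups of 4 samples, all kept for 72 h in type I collagen. The MEK inhibitor group received 9 nM EGF with 100 nM AZD6244, a MEK inhibitor, and the cetuximab group received 9 nM EGF with 10 µg/mL cetuximab, a therapeutic antibody against the EGF receptor. The invasive and the non-invasive groups are sorted cells of spheroids given 9 nM EGF alone, and the group called serum-free here received neither EGF nor inhibitor, all groups being in serum-free medium. Spheroids, 40 per treatment, were photoconverted at their invasive areas and dissociated before sorting. A label calls the MEK inhibitor, cetuximab and serum-free samples unselected, so in any comparison of these with sorted cells the treatment and the selection cannot be told apart. The titles call both sorted groups photoconverted, and the selection label describes invasive cells for both, so their division rests on the titles. The labels do not state that replicates were grown separately; if they were not, the p-values reflect technical spread between samples alone.

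The starts of 8 members are printed to show the tract in genes that the results below turn on. RefSeq promoter entries on GRCh38.p14 were found for 67 of the 83 members. Each line holds 15 bases before the annotated start and 15 bases from it on the gene's strand, with capitals for the first base and the run of C and T that a C opens there.
RPLP0 (60S stalk, chr12:120201097-120201126, minus strand): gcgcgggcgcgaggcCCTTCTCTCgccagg
RPLP1 (60S stalk, chr15:69452803-69452832, plus strand): gtataggcgcgagagCCCCTTTCCTCagct
RPL12 (60S stalk base, chr9:127451392-127451421, minus strand): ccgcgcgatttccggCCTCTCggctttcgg
RPSA (40S, chr3:39406705-39406734, plus strand): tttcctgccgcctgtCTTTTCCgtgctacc
RPS12 (40S, chr6:132814554-132814583, plus strand): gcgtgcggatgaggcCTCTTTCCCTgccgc
RPL13A (60S, chr19:49487593-49487622, plus strand): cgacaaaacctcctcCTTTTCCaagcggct
RPS9 (40S, chr19:54200843-54200872, plus strand): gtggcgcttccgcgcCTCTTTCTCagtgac
RPL37A (60S, chr2:216498829-216498858, plus strand): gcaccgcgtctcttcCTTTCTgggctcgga

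A C-opened run of at least 5 pyrimidines stood at the annotated first base of 47 of the 67 members (70.1%), against 1357 of 27238 other genes (4.98%). Members without it included RPS29, RPS7, RPS4X and RPL7L1. A C-opened run of at least 7 pyrimidines that starts within 10 bases of the annotated start was in 55 members (82.1%), against 16.2% of other genes. Of the members without the run at the first base, RPL10A, RPL15, RPL19, RPL36AL, RPL4, RPL9, RPS15, RPS28 and RPS7 had such a longer run nearby. The 7-letter motif CCGGAAG, searched on both strands of the 300-base entries, was in 24 members (35.8%), against 12.1% of other genes. Such a match describes these letters only. Several pairs of paralogues differ in their starts, and 3 pairs are printed for the comparison made further on, with the conventional partner first. Where a start opens with another base, only that base is in capitals.
RPL22 (chr1:6199581-6199610, minus strand): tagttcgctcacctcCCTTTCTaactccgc
RPL22L1 (chr3:170870181-170870210, minus strand): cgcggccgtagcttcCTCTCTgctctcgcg
RPL26 (chr17:8383179-8383208, minus strand): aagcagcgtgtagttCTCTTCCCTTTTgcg
RPL26L1 (chr5:172958714-172958743, plus strand): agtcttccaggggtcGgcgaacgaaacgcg
RPL36A (chrX:101390996-101391025, plus strand): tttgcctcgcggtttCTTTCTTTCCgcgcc
RPL36AL (chr14:49620612-49620641, minus strand): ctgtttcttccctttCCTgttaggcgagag
The starts of RPL26L1 and RPL36AL held no C-opened run of 5 from the annotated first base, whereas the starts of RPL22L1 and of the 3 conventional partners did. In RPL36AL the pyrimidines continue upstream of that base, so a run spans the annotated start.

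Libraries held 2312126 to 5669262 counts in FaDu. Kyse30 libraries held 2538447 to 4534339 counts apart from invasive replicate 1, with 463124 counts and 5281 genes detected, so Kyse30 counts of called genes are given with and without this shallow library. The nuclear RNA MALAT1 took 0.667% to 2.87% of FaDu counts and 0.798% to 9.63% of Kyse30 counts. All 10 squamous epithelial markers were in the table, with a summed level of 4793 to 8515 CPM in FaDu and 1530 to 4629 CPM in Kyse30, although KRT5 was at 0 in non-invasive and KRT14 at 0 in serum-free Kyse30. Of the markers of other cells, 1 of 6 for fibroblasts (COL1A1), 1 of 5 for leukocytes (CD68) and 1 of 3 for endothelium (CDH5) were in the table, none above 54.0 CPM in any library.

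Within the family 2 further libraries stood apart, FaDu cetuximab replicate 2 and Kyse30 cetuximab replicate 1. RPS7, a 40S protein, had 274, 32.8, 248 and 291 CPM in the 4 FaDu cetuximab libraries and 11.9, 283, 215 and 191 CPM in those of Kyse30. RPS29, a 40S zinc-binding protein, had 4407, 999, 4631 and 4679 CPM in FaDu and 568, 2299.6, 1849.9 and 1515 CPM in Kyse30. In each line the same library was far below the other 3 for both genes. Relative to their group's median, 12 members were lower by at least 1 log2 unit in the FaDu library and 13 in the Kyse30 library. Across the 83 members the deviations of these libraries of different lines had a Spearman's rho of 0.80. Over 615 pairs of libraries from different groups, without these libraries and FaDu invasive replicate 2, the median was 0.00 and the highest 0.675. FaDu invasive replicate 2, whose deviations were smaller (SD over members 0.32 log2 units, against 0.79 and 0.80), had a rho of 0.74 with the FaDu and 0.67 with the Kyse30 library, the second below that highest value. In each of these 3 libraries the same 10 members were lower by 0.5 log2 units or more, among them RPS7, RPS27, RPS18, RPS29, RPL22L1, RPL4, RPL30, RPL7A and RPL34. FaDu invasive replicate 2 was not picked by the size of its deviations, as FaDu invasive replicate 3 (SD 0.42) stayed in the 615 pairs. Its likeness to the cetuximab libraries is thus a description and no test. The Spearman correlation of the deviations of the cetuximab libraries and FaDu invasive replicate 2 with the members' transcript length was at most 0.10. What sets the cetuximab libraries apart was not tested, and cetuximab results below are given also without them where they differ.

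**Figure D1:**
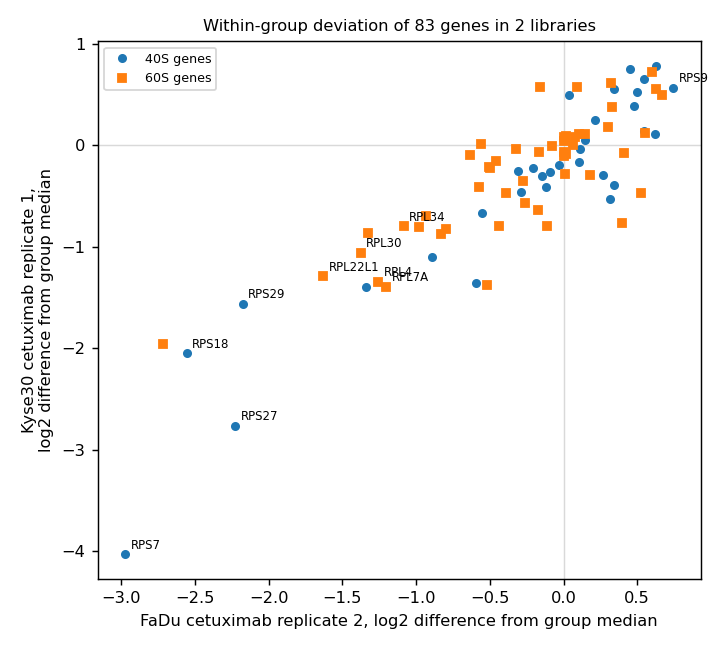
Difference of each of the 83 members from its group's median (log2 CPM) in FaDu cetuximab replicate 2 (horizontal axis) and Kyse30 cetuximab replicate 1 (vertical axis), 1 point per gene. RPS7 lay lowest in both, at -2.97 and -4.03, and the points follow a common trend (rho 0.80).

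The family made up a large share of each library and its members ranged widely. CPM are counts scaled to library size with TMM, a correction for library composition, and because the kit reads transcript 3′ ends a level was not divided by length. The mean over the 20 libraries of a line had a median of 787 CPM over members in FaDu and 791 CPM in Kyse30. In FaDu 33 members averaged over 1000 CPM, and in Kyse30 34 did. Among the 5 highest were RPLP1, RPS29, RPL7A and RPL27A in FaDu, at 3963, 3632, 3431 and 3197 CPM, and RPL37, RPLP1, RPL23 and RPL35A in Kyse30, at 2809, 2696, 2265 and 2032 CPM. At the low end stood RPL17 in FaDu, at 3.44 CPM, and RPS26 in Kyse30, at 3.21 CPM. Members such as RPL17, RPS26, RPL21 and RPL7 have near-identical pseudogene copies among which counting can split or lose reads, so their low levels are uncertain.

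As a share of all counts the family had its lowest group mean with the MEK inhibitor in Kyse30 and its highest with cetuximab in FaDu. The FaDu shares were 6.50, 8.91, 8.20 and 9.14% with the MEK inhibitor, 11.2, 9.77, 12.6 and 12.2% with cetuximab, 8.88, 7.53, 8.08 and 8.52% in invasive cells, 9.21, 9.79, 8.84 and 8.43% in non-invasive cells and 9.53, 9.38, 9.82 and 9.31% in serum-free spheroids. The group means ± SD over 4 libraries were 8.19 ± 1.19%, 11.4 ± 1.26%, 8.25 ± 0.582%, 9.07 ± 0.579% and 9.51 ± 0.227%. In FaDu all 4 cetuximab libraries exceeded all 4 MEK inhibitor libraries, while 1 cetuximab library lay below the highest non-invasive one. In Kyse30 the shares were 6.84, 7.04, 5.97 and 6.89% with the MEK inhibitor, 7.85, 9.74, 8.50 and 7.74% with cetuximab, 4.65, 7.93, 8.59 and 8.90% in invasive cells, 7.19, 8.21, 5.26 and 9.15% in non-invasive cells and 9.00, 8.62, 7.89 and 8.52% in serum-free spheroids. All 4 MEK inhibitor libraries of Kyse30 lay below all cetuximab and all serum-free libraries, and overlapped the sorted groups. Low shares in Kyse30 invasive replicate 1 and non-invasive replicates 1 and 3 went with MALAT1 shares of 8.18%, 6.27% and 9.63%, against 0.667% to 3.26% in the other 37 libraries of both lines. In bulk RNA, fewer cells that express a gene and less of its RNA per cell cannot be told apart.

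**Figure D2:**
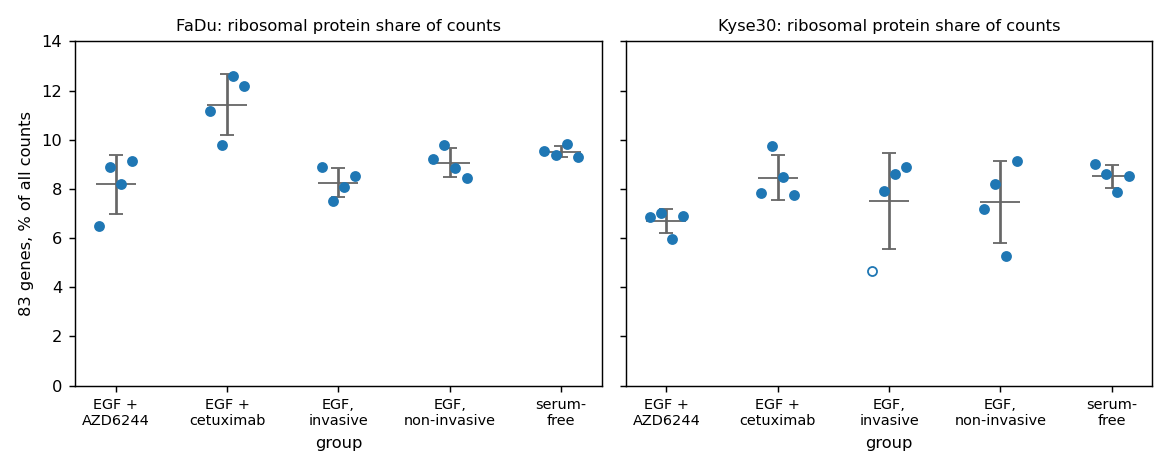
Summed counts of the 83 members as a percentage of all counts, per library (points) with the mean ± SD of each group (bars), in FaDu and Kyse30; the open circle is the shallow Kyse30 library. FaDu cetuximab libraries lie between 9.77% and 12.6%, all above the MEK inhibitor libraries at 6.50% to 9.14%.

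Non-invasive EGF-treated FaDu cells held more of some ribosomal protein messages and less of others than serum-free spheroids. At an adjusted p below 0.05 in edgeR's quasi-likelihood test (called, from here on) 21 members were higher and 4 lower, where 25.3% of all genes tested were called higher and 24.7% lower, so the members' shares were close to or below the background. Scaling by total counts gave 14 higher and 9 lower, and scaling each library to its ribosomal protein sum gave 16 and 6. The members' median log2 fold change was 0.10, against -0.02 over all genes. Mitochondrial transcripts took 9.37% of counts in non-invasive cells and 15.3% in serum-free spheroids, and their part in these values was not tested.

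RPL12, a protein at the base of the 60S stalk, had 572, 666, 665 and 645 CPM in non-invasive cells and 310.5, 321, 319.7 and 305 CPM in serum-free spheroids. The groups were far apart, with a log2 fold change of 1.02 ± 0.12 (SE here and below) and an adjusted p of 7.43e-08. RPS2, a 40S protein near the entry of the messenger RNA, had 2087, 2546, 2265 and 1980.3 CPM in non-invasive cells and 1082, 1206, 1272 and 1183 CPM in serum-free spheroids (log2 0.90 ± 0.15, adjusted p = 2.25e-05). RPSA, a 40S protein also known as the laminin receptor precursor, had 187, 214, 183 and 158 CPM in non-invasive cells and 104, 115, 118 and 113 CPM in serum-free spheroids (log2 0.72 ± 0.15, adjusted p = 0.000321). For all 3 genes every non-invasive library lay above every serum-free library. The paralogues RPL39L, RPL22L1, RPL26L1, RPL7L1 and RPL36AL also rose, by 0.54 to 1.35, and are described further on.

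The 4 members that fell were RPL13A, RPLP1, RPL37 and RPL13, all of the 60S subunit. RPL13A, which is also known for a role outside the ribosome in silencing inflammatory messages, had 339.7, 383, 304 and 317 CPM in non-invasive cells and 509, 563, 547 and 525 CPM in serum-free spheroids (log2 -0.67 ± 0.18, adjusted p = 0.00301). RPLP1, a stalk protein that helps recruit elongation factors, had 3413, 3670.0, 3395 and 3512 CPM in non-invasive cells and 5012, 4738, 4920.3 and 4819 CPM in serum-free spheroids (log2 -0.48 ± 0.10, adjusted p = 0.000197). The groups did not overlap for either gene. The stalk partners of RPLP1, RPLP0 and RPLP2, had log2 fold changes of 0.09 and -0.02 and were not called, whereas RPL12 at the stalk base rose. RPL37 changed by -0.41 and RPL13 by -0.37. The call on RPL37 was lost without non-invasive replicate 1, 3 or 4 or serum-free replicate 1, 3 or 4 (log2 -0.37 to -0.43). The call on RPL13 was lost without non-invasive replicate 1, 3 or 4 or serum-free replicate 3 (log2 -0.32 to -0.36).

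In Kyse30, RPL13A was the only member called between non-invasive cells and serum-free spheroids, where 8.10% of all genes were called higher and 4.76% lower. It had 482, 575, 359 and 569.6 CPM in non-invasive cells and 759, 869, 686 and 778 CPM in serum-free spheroids, with no overlap (log2 -0.64 ± 0.20, adjusted p = 0.0348, and 0.00818 without the shallow library). The call was lost without non-invasive replicate 1, 3 or 4 or serum-free replicate 1, 2 or 4 (log2 -0.51 to -0.73), each of which left 0 members called, and scaling to the ribosomal protein sum gave 5 members higher and 0 lower. Without the shallow library 6 members were higher and 6 lower, against 15.9% and 12.0% of all genes. The higher ones were RPL22L1, RPS27L, RPL36AL, RPL12, RPS27A and RPL7L1, 4 of them paralogues of a conventional member. RPL12 had 969, 889.9, 884 and 1084 CPM in non-invasive and 631, 669.5, 665 and 759 CPM in serum-free Kyse30 (log2 0.49, adjusted p = 0.0108 without the shallow library and 0.139 with it).

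**Figure D3:**
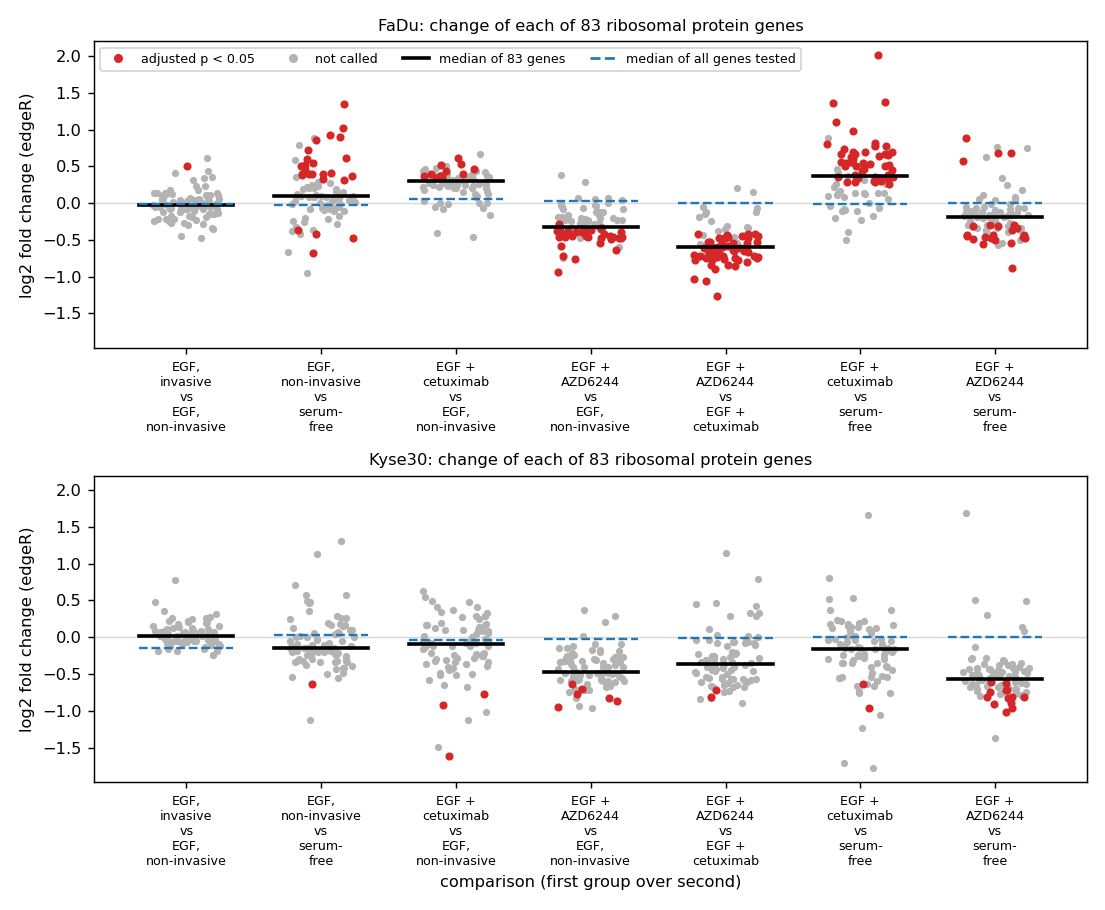
Log2 fold changes of the 83 members (points) in each comparison of FaDu and Kyse30, with red for members called by edgeR at an adjusted p below 0.05, a black line for the members' median and a blue dashed line for the median of all genes tested. In FaDu the members' median was 0.31 for cetuximab against non-invasive cells and -0.60 for MEK inhibitor against cetuximab.

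Cetuximab under EGF went with higher ribosomal protein messages in FaDu. Against non-invasive cells 12 members were higher and 0 lower, where 3.64% of all genes were called higher and 4.93% lower, and the members' median log2 fold change was 0.31, against 0.05 over all genes. RPLP0, the anchor of the stalk, had the largest log2 fold change of the members called. It had 3101, 3376, 3514 and 3319 CPM with cetuximab and 2058, 2395, 2166 and 2101 CPM in non-invasive cells (log2 0.61 ± 0.10, adjusted p = 0.000159). RPLP1 had 4314, 4597, 4886 and 4591 CPM with cetuximab and 3413, 3670.0, 3395 and 3512 CPM in non-invasive cells (log2 0.39 ± 0.10, adjusted p = 0.00924). All cetuximab libraries lay above all non-invasive libraries for both genes, and likewise for RPLP2, at 3060.2 ± 167 CPM with cetuximab and 2364 ± 174 CPM in non-invasive cells (SD, n = 4 each; log2 0.37, adjusted p = 0.0195 in edgeR). The call on RPLP0 held without any single library, that on RPLP1 was lost without cetuximab replicate 3 (log2 0.34), and that on RPLP2 without cetuximab replicate 3 or 4 or non-invasive replicate 1, 3 or 4 (log2 0.34 to 0.35).

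Of the 40S members, RPS12 had 2032, 2419.9, 2411 and 2097 CPM with cetuximab and 1495, 1612, 1566 and 1554 CPM in non-invasive FaDu cells, without overlap (log2 0.52 ± 0.10, adjusted p = 0.0012). RPS6, the substrate of S6 kinase, had 1939.7, 1620.3, 2103 and 2082 CPM with cetuximab and 1461, 1656, 1438 and 1439 CPM in non-invasive cells (log2 0.37, adjusted p = 0.0296), with replicate 2 lowest under cetuximab and highest among non-invasive cells, so the groups overlapped. The call on RPS6 was lost without cetuximab replicate 1, 3 or 4 or non-invasive replicate 1, 3 or 4 (log2 0.31 to 0.35). The other members called, RPL22, RPL9, RPS3A, RPS19, RPL27A and RPL11 among them, were higher by log2 0.34 to 0.51. The count rested on single libraries. It was 22 without cetuximab replicate 2, 2 without cetuximab replicate 3, 6 without cetuximab replicate 4, and 4, 3 and 4 without non-invasive replicates 1, 3 and 4. Scaled to the ribosomal protein sum, RPLP0 remained higher (log2 0.31, adjusted p = 0.0386), 1 of 3 members then called.

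In Kyse30, 0 members were higher and 3 lower with cetuximab than in non-invasive cells, where 1.85% of all genes were called higher and 3.08% lower. RPL22L1, a paralogue of the 60S protein RPL22, had 5.44, 36.8, 19.2 and 10.3 CPM with cetuximab and 57.2, 52.9, 52.0 and 58.4 CPM in non-invasive cells, without overlap (log2 -1.61 ± 0.40, adjusted p = 0.0182). RPL36AL, a paralogue of RPL36A, had 70.2, 167, 131 and 119 CPM with cetuximab and 265, 203, 169 and 281 CPM in non-invasive cells (log2 -0.92 ± 0.23, adjusted p = 0.0203). RPL27 changed by -0.77 ± 0.22 (adjusted p = 0.0406). For all 3 genes the lowest library was cetuximab replicate 1, and without it 0 members were called, with adjusted p-values of 0.066, 0.107 and 0.169. The count was also 0 without cetuximab replicate 3 or 4, and 1 without non-invasive replicate 1 or 4. Without the shallow library 4 members were higher (RPS9, RPL27A and RPS3 among them) and 8 lower, against 7.37% and 9.76% of all genes. The members' median, -0.09, was 0.16 when libraries were scaled by total counts, which moved the median of all genes to 0.22 and gave 3 members higher and 1 lower.

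With the MEK inhibitor no member rose against non-invasive cells in either line. In FaDu 34 members fell, 14 of 32 in the 40S and 20 of 51 in the 60S subunit, where 14.8% of all genes were called higher and 14.9% lower. The median log2 fold change was -0.32, against 0.03 over all genes. The count was 22 without non-invasive replicate 2, and 28 without MEK inhibitor replicate 1, whose mitochondrial and MALAT1 shares were 14.6% and 2.87%. Scaling by total counts gave 14 lower, and scaling to the ribosomal protein sum gave 3 higher and 2 lower.

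RPS9, a 40S protein that bears on the accuracy of decoding, had 323, 434, 403 and 421 CPM with the MEK inhibitor and 612, 714, 634 and 725 CPM in non-invasive FaDu cells (log2 -0.76 ± 0.16, adjusted p = 0.000718). RPL24, a 60S protein that forms a bridge to the small subunit, had 246, 349.8, 323 and 320.1 CPM with the MEK inhibitor and 536, 531, 474 and 501 CPM in non-invasive cells (log2 -0.72 ± 0.11, adjusted p = 9.26e-06). RPL12 had 416, 482, 478 and 488 CPM with the MEK inhibitor, against the non-invasive values given above (log2 -0.45 ± 0.12, adjusted p = 0.00461). For these 3 genes all MEK inhibitor libraries lay below all non-invasive ones. Unlike RPL12 at the stalk base, the stalk genes RPLP0, RPLP1 and RPLP2 did not pass the test, with log2 fold changes of 0.00, -0.03 and -0.17. RPL5 and RPL11, which carry the 5S rRNA and bind the p53 regulator MDM2 when free, changed by -0.38 and -0.29 (adjusted p = 0.00677 and 0.0373). The call on RPL11 was lost without MEK inhibitor replicate 1 or 3 or non-invasive replicate 1, 2 or 3 (log2 -0.22 to -0.30).

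In Kyse30, 6 members fell with the MEK inhibitor against non-invasive cells, and 31 without the shallow library, where 1.65% of all genes were called higher and 2.91% lower (5.84% and 8.56% without it). RPS27A, made as a fusion with ubiquitin, had 988, 1364, 1218 and 1142 CPM with the MEK inhibitor and 2438, 2310.1, 1854 and 2457 CPM in non-invasive cells (log2 -0.94 ± 0.18, adjusted p = 0.00152). RPL5 had 1186, 1219.6, 994 and 1009 CPM with the MEK inhibitor and 1888, 1814, 1822 and 2275 CPM in non-invasive cells (log2 -0.82 ± 0.19, adjusted p = 0.00846). RPL12 had 569, 524, 482 and 516 CPM with the MEK inhibitor and 969, 889.9, 884 and 1084 CPM in non-invasive cells (log2 -0.87 ± 0.21, adjusted p = 0.0153). All MEK inhibitor libraries lay below all non-invasive libraries for these 3 genes.

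The other Kyse30 members called were RPL8, RPL26 and RPL36, and all but RPL36 of the 6 were also called lower in FaDu. The count was 1 without MEK inhibitor replicate 3 or non-invasive replicate 4, 2 without MEK inhibitor replicate 2, and 3 without MEK inhibitor replicate 1 or 4. The call on RPL5 was lost without MEK inhibitor replicate 3 or non-invasive replicate 4 (log2 -0.72 to -0.77). The call on RPL12 was lost without MEK inhibitor replicate 1, 2, 3 or 4 or non-invasive replicate 4 (log2 -0.79 to -0.90). Scaling by total counts gave 1 member lower. Without the 3 Kyse30 libraries of high MALAT1 share named above, an alternative chosen after the data were seen, 39 members were called. These 3 libraries include the shallow one, and without it alone 31 members were called.

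The most members were called between the inhibitors in FaDu. These were compared in unselected spheroids under the same EGF dose. In FaDu 62 members fell with the MEK inhibitor against cetuximab and 0 rose, where 8.54% of all genes were called higher and 11.2% lower. The median log2 fold change was -0.60, against 0.00 over all genes, and the count ran from 52 to 69 when any 1 of the 8 libraries was left out. Of the 40S members 24 of 32 fell, and of the 60S members 38 of 51. RPL23A, a 60S protein by the exit tunnel, had 128, 214, 172 and 182 CPM with the MEK inhibitor and 299, 504, 309 and 343 CPM with cetuximab (log2 -1.06 ± 0.16, adjusted p = 3.68e-05). RPS9 had the MEK inhibitor values given above and 701, 1181, 709 and 643 CPM with cetuximab (log2 -1.03 ± 0.16, adjusted p = 4.56e-05). RPS6 had 998, 1268, 1188 and 1168 CPM with the MEK inhibitor and 1939.7, 1620.3, 2103 and 2082 CPM with cetuximab (log2 -0.74 ± 0.11, adjusted p = 1.68e-05). In these 3 genes every MEK inhibitor library lay below every cetuximab library, and cetuximab replicate 2 was highest for RPL23A and RPS9 but lowest for RPS6.

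Every stalk gene fell in this FaDu comparison. RPLP0 had 1890.2, 2253, 2234 and 2348 CPM with the MEK inhibitor and 3101, 3376, 3514 and 3319 CPM with cetuximab (log2 -0.61 ± 0.10, adjusted p = 8.07e-05), and RPLP1 and RPLP2 changed by -0.42 and -0.54. RPL5 and RPL11 changed by -0.65 and -0.63, with adjusted p-values of 4.82e-05 and 9.61e-05. Scaled to the ribosomal protein sum, which removes the family's common change by construction, 2 members were called higher and 3 lower. The relative log2 fold changes ran from -0.72 (RPL39L) to 0.81 (RPL36AL). A member not called on this scale is not shown to follow the common change. RPLP1 and RPLP2 stood at 0.16 and 0.04 on it. The mitochondrial share was 10.9% with the MEK inhibitor and 8.38% with cetuximab, and the summed squamous markers were 6790 to 8515 CPM with the MEK inhibitor and 4793 to 6226 CPM with cetuximab. Their part in the result was not tested.

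In Kyse30, 2 members fell with the MEK inhibitor against cetuximab and 0 rose, and 23 fell without the shallow library, where 0.593% of all genes were called higher and 0.585% lower (2.24% and 2.43% without it). RPS4X, a 40S protein encoded on the X chromosome, had 776, 720.4, 655 and 781 CPM with the MEK inhibitor and 1729, 1256, 997 and 1158 CPM with cetuximab (log2 -0.81 ± 0.19, adjusted p = 0.0282, and 0.00254 without the shallow library). RPL37A, a 60S zinc-binding protein, had 1282, 1393, 1244 and 1296 CPM with the MEK inhibitor and 2209, 2443, 1981 and 1941 CPM with cetuximab (log2 -0.72 ± 0.18, adjusted p = 0.0455, and 0.00208 without the shallow library). Neither gene's groups overlapped. With the replicate number as a block 1 member was called. The count was 0 when any of the 4 MEK inhibitor libraries or cetuximab replicate 1, 2 or 4 was left out, and 1 without cetuximab replicate 3. The median log2 fold change was -0.36 with all libraries and -0.39 without cetuximab replicate 1.

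Both of these genes were also called lower in FaDu, as were all 23 called without the shallow library. Most members, 62 of 83, were called lower in FaDu. Across the 83 members 70 had negative log2 fold changes in both lines. As all FaDu members but RPL26L1 and RPL36AL were negative, this count mostly reflects the Kyse30 signs. The values of the lines had a Pearson's r of 0.68 and a Spearman's rho of 0.74. Without the pair of cetuximab libraries that stood apart 74 were negative in both lines, and r and rho were 0.35 and 0.34. Genes of a library are not independent replicates, so these values describe the pattern only.

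**Figure D4:**
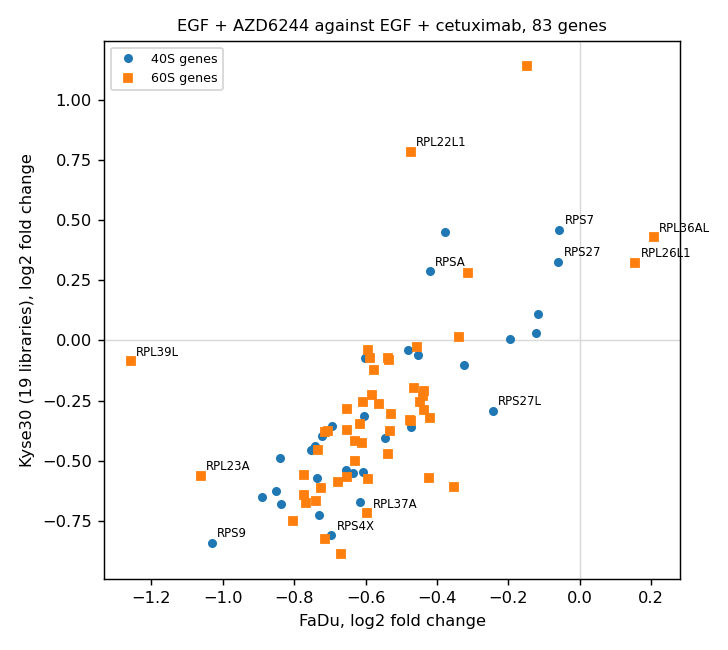
Log2 fold change of the 83 members for MEK inhibitor against cetuximab in FaDu (horizontal axis) and in Kyse30 without its shallow library (vertical axis), 1 point per gene. Most points lie below 0 on both axes, and the 23 members called in Kyse30 were also called in FaDu, where 62 of the 83 were called.

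Set against serum-free spheroids, which are unselected like the inhibitor groups but received no EGF, FaDu members were mostly higher with cetuximab and mostly lower with the MEK inhibitor. With cetuximab 50 members rose and 0 fell, where 22.7% of all genes were called higher and 21.1% lower. With the MEK inhibitor 4 rose and 19 fell, where 10.8% and 8.63% of all genes were called. These comparisons share the serum-free libraries with each other and with the first one. RPL12 had 679, 993, 799 and 783 CPM with cetuximab (log2 1.37 ± 0.12, adjusted p = 5.36e-10) and changed by 0.57 ± 0.12 with the MEK inhibitor (adjusted p = 0.000971), each against serum-free spheroids. RPSA had 148, 187, 180.4 and 204 CPM with the MEK inhibitor and 246, 169.8, 268 and 279 CPM with cetuximab, at log2 0.68 and 1.10 against serum-free spheroids (adjusted p = 0.00234 and 1.88e-06). RPS2 changed by 0.88 with the MEK inhibitor and 1.36 with cetuximab. RPL12, RPSA, RPS2 and RPL26L1 were thus the 4 members higher than in serum-free spheroids with the MEK inhibitor.

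RPL13A was lower with the MEK inhibitor in FaDu, at 236, 372, 228 and 320.3 CPM against the serum-free values given above (log2 -0.89 ± 0.18, adjusted p = 0.000877), and RPL23 and RPL37 changed by -0.56 and -0.54. The calls on RPL23 and on RPL37 were each lost without MEK inhibitor replicate 1 or 3 or serum-free replicate 3. The FaDu MEK inhibitor count of 23 was 9 without MEK inhibitor replicate 3 and 13 without MEK inhibitor replicate 1 or serum-free replicate 3. It was 14 without serum-free replicate 4 and 15 without MEK inhibitor replicate 4. Scaled to the ribosomal protein sum the split was 14 higher and 8 lower for cetuximab and 9 higher and 1 lower for the MEK inhibitor.

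In Kyse30, 13 members fell and 0 rose with the MEK inhibitor against serum-free spheroids, and 50 fell without the shallow library, where 2.29% of all genes were called higher and 1.61% lower (8.52% and 6.90% without it). Of the members called, the largest falls were in RPS25, a 40S protein used by viral entry sites of translation, at -1.02 ± 0.28 (adjusted p = 0.0385), RPL23 at -0.96 ± 0.23 (adjusted p = 0.0188) and RPS4X at -0.90 ± 0.19 (adjusted p = 0.00666). RPS4X had 1176, 1406, 1268 and 1633 CPM in serum-free Kyse30, all above the MEK inhibitor values given above. The calls on RPS25 and RPL23 were lost when any 1 of the 4 MEK inhibitor libraries was left out. They were also lost without serum-free replicate 1, 2 or 3 for RPS25 and without serum-free replicate 2 for RPL23. The count was 3 without MEK inhibitor replicate 1, 2 or 3, and 5 without MEK inhibitor replicate 4 or serum-free replicate 2. It was 8 without serum-free replicate 1 and 7 without serum-free replicate 4. Scaling by total counts gave 2 lower, with the median of all genes at 0.25, and scaling to the ribosomal protein sum gave 4 higher and 0 lower.

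With cetuximab against serum-free spheroids 2 Kyse30 members fell, RPL27 (-0.96 ± 0.22, adjusted p = 0.0146) and RPL13 (-0.63 ± 0.17, adjusted p = 0.0381), where 1.88% of all genes were called higher and 1.25% lower. The count was 0 without cetuximab replicate 1 or 4, 1 without cetuximab replicate 3 or any serum-free replicate, and 4 without cetuximab replicate 2. Without the shallow library 2 rose and 15 fell, against 8.72% and 6.42% of all genes. Scaling by total counts gave 1 higher and 1 lower and a members' median of 0.03 in place of -0.16, and scaling to the ribosomal protein sum gave 3 higher and 2 lower.

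Few members passed the test between invasive and non-invasive cells of the same EGF treatment. In FaDu 1 member was called higher and 0 lower, where 0.659% of all genes were called higher and 2.34% lower. The member was RPL7L1, a nucleolar paralogue of RPL7 that acts in assembly of the 60S subunit. It had 331, 402, 374 and 322 CPM in invasive and 233, 279, 259 and 239 CPM in non-invasive FaDu cells, without overlap (log2 0.50 ± 0.13, adjusted p = 0.0333). The call was lost without invasive replicate 2 or 3 or non-invasive replicate 1, 3 or 4 (log2 0.44 to 0.53), and the count was 0 without invasive replicate 3 or non-invasive replicate 1, 3 or 4. The members' log2 fold changes ran from -0.48 to 0.61, with a median of -0.03.

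In Kyse30, 0 of 83 members were called in edgeR between invasive and non-invasive cells, with or without the shallow library, where 0.0668% of all genes were called higher and 0.342% lower (0.729% and 1.37% without it). At an unadjusted p below 0.05 the number was 1 with all libraries and 10 without the shallow one, and DESeq2 and limma-voom called 0. RPL7L1 had 101, 206, 259 and 230.3 CPM in invasive and 179.9, 165, 198 and 215 CPM in non-invasive Kyse30 cells, with the shallow library lowest and the groups overlapping. RPL22L1 had 114, 72.4, 118 and 77.2 CPM in invasive and 57.2, 52.9, 52.0 and 58.4 CPM in non-invasive cells, without overlap, but did not pass the test (log2 0.78 ± 0.40, adjusted p = 0.414). A p that misses the threshold does not show that the levels were alike.

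Paralogues that share a family name with a conventional member departed from it in several groups. RPL39L, a paralogue of the 60S exit-tunnel protein RPL39 known from testis and tumours, had 2.11, 7.84, 6.41 and 10.00 CPM with the MEK inhibitor, 15.6, 13.2, 21.5 and 14.3 CPM with cetuximab, 11.3, 7.07, 2.75 and 12.2 CPM in invasive cells, 13.9, 11.2, 7.13 and 8.71 CPM in non-invasive cells and 5.72, 4.69, 3.12 and 2.77 CPM in serum-free spheroids of FaDu. It was higher in non-invasive cells than in serum-free spheroids by 1.35 ± 0.41 (adjusted p = 0.00827), and lower with the MEK inhibitor than with cetuximab, at log2 -1.26 ± 0.38 (adjusted p = 0.019). The second call was lost without MEK inhibitor replicate 1 or 3 or cetuximab replicate 3 (log2 -0.98 to -1.21). These levels are among the lowest of the family. RPL39 was not called between non-invasive cells and serum-free spheroids, at 2194 ± 137 and 2241 ± 100.0 CPM (SD, n = 4 each). Between the inhibitors RPL39 also fell without overlap, to 1607 ± 276 CPM under AZD6244 from 2426 ± 89.4 CPM under cetuximab. Both genes thus moved the same way there, and relative to the ribosomal protein sum RPL39L was not called (log2 -0.72, adjusted p = 0.101). Kyse30 group means of RPL39L lay between 18.9 CPM (non-invasive) and 24.3 CPM (cetuximab).

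RPL22L1 had 38.8, 50.3, 39.9 and 43.0 CPM with the MEK inhibitor, 107, 81.5, 67.8 and 74.0 CPM in non-invasive cells and 56.8, 31.0, 46.2 and 40.6 CPM in serum-free spheroids of FaDu. Non-invasive libraries exceeded all libraries of the other 2 groups. The log2 fold change was -0.94 ± 0.33 for the MEK inhibitor against non-invasive cells (adjusted p = 0.0377) and 0.93 ± 0.33 for non-invasive cells against serum-free spheroids (adjusted p = 0.0257). The first call was lost without MEK inhibitor replicate 1, 3 or 4 or non-invasive replicate 1, 2 or 4 (log2 -0.79 to -0.99), and the second without non-invasive replicate 1 or serum-free replicate 2 or 4 (log2 0.79 to 0.90). RPL22 had log2 fold changes of 0.07 and 0.03 in the same comparisons and was not called. The conventional gene rose with cetuximab against non-invasive cells (log2 0.51 ± 0.13, adjusted p = 0.00909). That call was lost without cetuximab replicate 3 or non-invasive replicate 3 (log2 0.43 to 0.44). RPL22L1 had a log2 fold change of -0.47 in this comparison, which was not called. Its cetuximab libraries had 94.5, 19.5, 58.0 and 65.2 CPM and overlapped the non-invasive ones. Cetuximab replicate 2, the library that stood apart, was lowest for both genes, so the RPL22L1 value leans on it.

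RPL26L1 and RPL36AL were among the 21 FaDu members not called lower with the MEK inhibitor than with cetuximab. They alone had positive log2 fold changes in that comparison. RPL26L1 had 45.1, 36.7, 35.1 and 42.5 CPM with the MEK inhibitor and 38.9, 24.9, 39.6 and 38.9 CPM with cetuximab, with the second cetuximab library below the rest. RPL36AL had 311, 288, 237 and 249 CPM with the MEK inhibitor and 264, 150.3, 259 and 264 CPM with cetuximab, again with the second cetuximab library lowest. Their log2 fold changes were 0.15 and 0.21, neither called, and 0.02 and 0.04 without that library. Relative to the ribosomal protein sum they were the 2 members called higher, by 0.76 and 0.81 (adjusted p = 0.00186 and 0.000536). Their partners RPL26 and RPL36A fell, at log2 -0.68 and -0.71 (adjusted p = 0.000313 and 0.00489).

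In Kyse30 the same paralogues stood out relative to the ribosomal protein sum with the MEK inhibitor against serum-free spheroids, where RPL26L1 was higher by 1.09, RPL36AL by 0.68 and RPS27L, a paralogue of RPS27 that p53 induces, by 1.09 (adjusted p = 0.00892, 0.034 and 0.013). The fourth was the sparse RPS26. With TMM scaling none of the 4 was called. RPL26L1 had 36.0, 40.7, 35.6 and 34.6 CPM with the MEK inhibitor and 25.6, 32.8, 21.6 and 23.7 CPM in serum-free Kyse30, without overlap. RPS27L had 123, 117, 78.6 and 66.7 CPM with the MEK inhibitor and 63.4, 56.5, 66.4 and 84.7 CPM in serum-free Kyse30, with overlap.

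**Figure D5:**
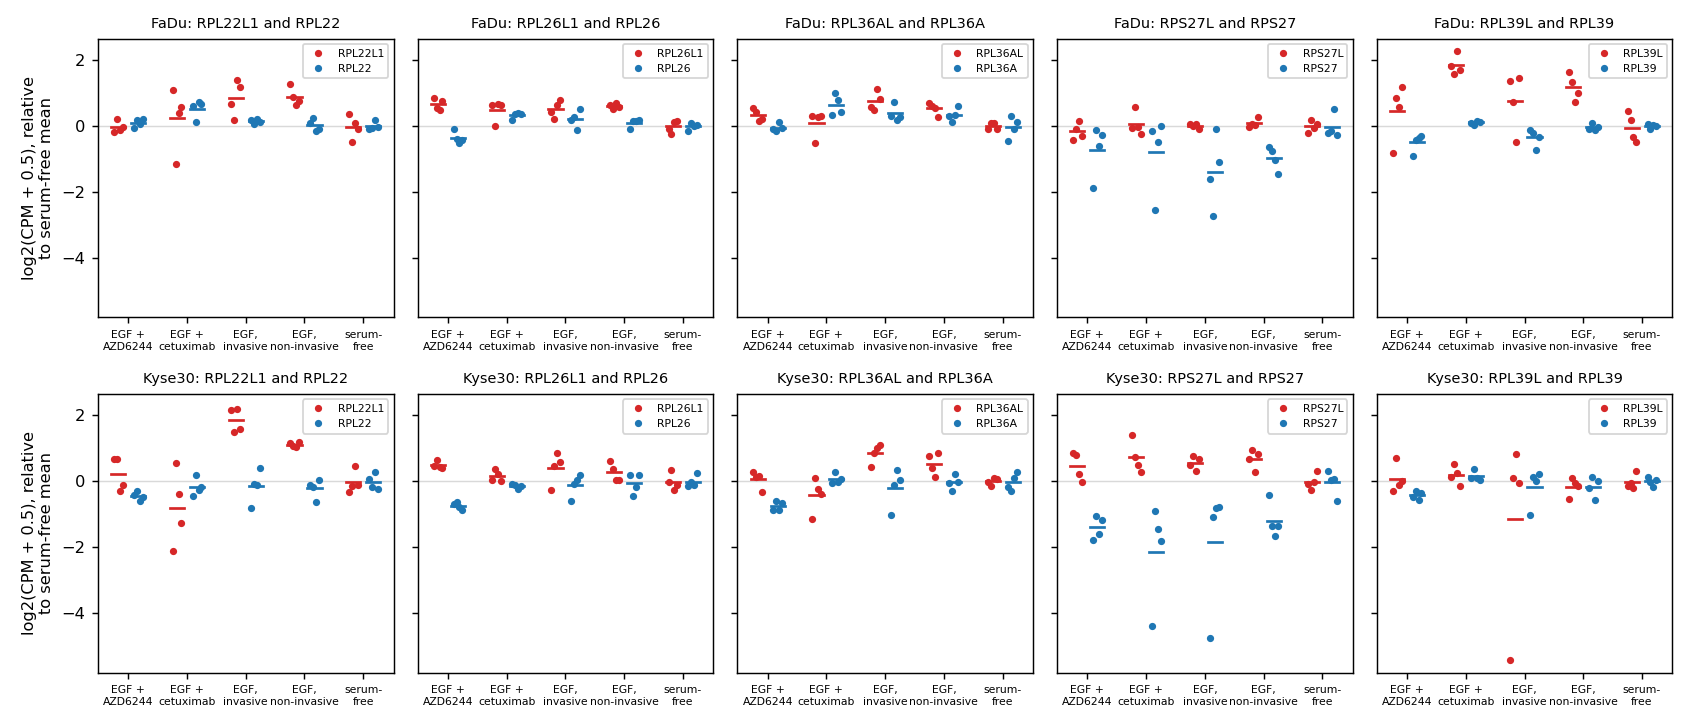
Levels of 5 paralogues and their conventional partners in each library, as log2(CPM + 0.5) relative to the mean of the serum-free group of the same line, with bars for group means. In FaDu the MEK inhibitor and cetuximab libraries overlap for RPL26L1 and RPL36AL, whereas for RPL26 and RPL36A all MEK inhibitor libraries lie below all cetuximab libraries.

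The difference between the lines was itself tested as the Kyse30 log2 fold change minus the FaDu one. For non-invasive cells against serum-free spheroids it was negative for 2 members and positive for 0, where 9.48% of all genes were called positive and 6.20% negative. RPSA had 91.5, 82.3, 93.5 and 92.0 CPM in non-invasive and 122, 143, 105 and 132 CPM in serum-free Kyse30, so that all non-invasive libraries lay below all serum-free ones, the reverse of FaDu. The difference was -1.20 ± 0.29 (SE, adjusted p = 0.00283, edgeR interaction test). The RPSA call was lost without replicate 2 (log2 -1.04). The number was 0 without replicate 2 and 1 without replicate 1 or 3 of these groups in both lines, and 9 without the shallow library, where 13.8% of all genes were positive and 10.9% negative.

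For cetuximab against non-invasive cells 0 members differed between the lines, where 0.751% of all genes were called positive and 0.561% negative, and 15 had an unadjusted p below 0.05. Without the shallow library 7 were negative, namely RPS27A, RPS12, RPS19, RPL5, RPL14, RPS2 and RPLP0, against 2.30% of all genes positive and 1.43% negative. RPLP0 had 1590.2, 2290.0, 1884 and 1983 CPM with cetuximab and 1941, 2098, 1629 and 2398 CPM in non-invasive Kyse30 cells, with overlap, and its difference was -0.61 (adjusted p = 0.0243 without the shallow library and 0.316 with it). RPS12 had 1180.2, 1537, 1322 and 1322 CPM with cetuximab and 1885, 1224, 1190.1 and 1684 CPM in non-invasive Kyse30 cells, also with overlap, and its difference was -0.62 (adjusted p = 0.0293 without and 0.0911 with the shallow library). Leaving out replicate 2 of these groups in both lines also gave 7.

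For the other comparisons between lines 0 members were called. In MEK inhibitor against non-invasive cells 2.27% of all genes were positive and 2.83% negative, in MEK inhibitor against cetuximab 0.387% and 0.656%, and in invasive against non-invasive cells 0.142% and 0.0395%. The numbers of members at an unadjusted p below 0.05 were 2, 2 and 0. Without the shallow library RPS12 alone was called, for MEK inhibitor against non-invasive cells, where 5.82% of all genes were positive and 5.63% negative. For these comparisons a member called in 1 line only is therefore not shown to differ between the lines.

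Members with and without a C-opened run of 5 at the annotated first base are described side by side, without a test. The members without it include those named above that hold a longer run nearby. In FaDu 40 of 47 with it and 11 of 20 without it were lower with the MEK inhibitor than with cetuximab. Their medians were -0.61 and -0.53, and 11.2% of all genes were called lower. Against non-invasive cells 25 of 47 with it and 4 of 20 without it were lower with the MEK inhibitor (medians -0.36 and -0.27). Of all genes 14.9% were called lower there. With cetuximab against non-invasive cells 10 of 47 and 1 of 20 were higher (medians 0.32 and 0.14), beside 3.64% of all genes. Of the 16 members without a promoter entry 11, 5 and 1 were called in these comparisons, in the same order. In Kyse30 1 of 47 and 1 of 20 were lower with the MEK inhibitor than with cetuximab, beside 0.585% of all genes. Against non-invasive cells 4 of 47 and 0 of 20 were, beside 2.91%. The part of expression level and spread in these counts was not tested.

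Other genes of protein synthesis are given for MEK inhibitor against cetuximab in FaDu, beside the background of 8.54% higher and 11.2% lower. FAU and RACK1, ribosome parts whose symbols the rule does not match, both fell. Of 16 translation factors and other genes with TOP messages 11 fell and 0 rose (median -0.56), among them EEF2, the translocase, at -0.66, EEF1B2, an exchange factor, at -0.95, and NPM1, a nucleolar chaperone, at -0.77. Of 17 genes of ribosome assembly and rRNA synthesis 9 fell (median -0.68), including FBL, the methyltransferase of box C/D particles, at -1.21. Of 76 mitochondrial ribosomal protein genes 15 fell (median -0.28), and of 11 host genes of small nucleolar RNAs 5 fell. Of 15 mTORC1 and TOP regulators PDCD4, an inhibitor of translation initiation, rose by 0.97, and EIF4EBP1, an mTORC1 substrate, and RPS6KB2, an S6 kinase, fell, at log2 -1.20 and -0.65.

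For cetuximab against non-invasive FaDu cells the same lists had 2 of 16 TOP genes, 1 of 11 host genes and 0 of 17 assembly and 0 of 76 mitochondrial ribosomal genes called, all higher, with medians of 0.29, 0.35, 0.06 and 0.01, beside 3.64% of all genes called higher and 4.93% lower. Between non-invasive cells and serum-free spheroids, 16 of 17 assembly genes rose and 0 fell in FaDu (median 1.05), and 45 of 76 mitochondrial ribosomal genes rose and 1 fell (median 0.56), beside 21 and 4 of the 83 cytoplasmic members with their median of 0.10 and 25.3% and 24.7% of all genes. In Kyse30 without the shallow library 8 assembly genes rose and 0 fell (median 0.54), and 5 of 76 mitochondrial ribosomal genes rose and 6 fell (median 0.03), beside 15.9% of all genes called higher and 12.0% lower, so the mitochondrial counts lay below the background. For MEK inhibitor against non-invasive Kyse30 cells, again without the shallow library, 9 of 16 TOP genes, 5 of 17 assembly genes and 3 of 76 mitochondrial ribosomal genes fell, and 0, 0 and 1 rose, beside 8.56% of all genes called lower and 5.84% higher.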

How the data were processed

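RNA was counted in 40 samples, 5 groups of 4 in each of 2 cell lines, with the Lexogen QuantSeq 3′ kit. The authors deposited whole-number read counts per gene without normalization. The submitters' processing notes name STAR, HTSeq and GRCh38 (hg38). Versions, annotation, strand setting and any unique molecular identifiers are not given in the sources used, so precision covers counting error and the spread between libraries only, and sense and antisense reads cannot be told apart. Such counting can split or lose reads of near-identical copies. Each column name matched 1 sample, and groups come from the titles. All 60 pairs of replicates differed by more than sampling noise (chi-square per degree of freedom 2.42 to 67.4).

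Tests used edgeR 4.0.16 in R 4.3.3 (quasi-likelihood F test, TMM, default expression filter by group, robust fit) over the 20 libraries of a line, with Benjamini-Hochberg adjustment over all genes tested (12131 in FaDu, 11976 in Kyse30, 12072 without its shallow library). Differences between lines were interaction contrasts over all 40 libraries. The SE of a log2 fold change was derived as its absolute value over the square root of its F statistic, not fitted directly. Alternatives were DESeq2 1.42.0, limma 3.58.1 (voom), other scalings, no filter, a replicate block, only the groups compared, each library left out, pseudogene counts added to their parents, and Kyse30 without 3 libraries of high MALAT1 share, the last 2 of these chosen after seeing the data. Same-numbered libraries of MEK inhibitor and cetuximab in Kyse30 deviated together (correlations 0.10 to 0.35, all 4 over 0.1), which no label explains; in no other comparison did all 4. The scripts were tested on simulated data. Members, gene lists and tests were chosen with earlier results of these data known. The genes named are, in each comparison, the 3 members with the largest rise and the 3 with the largest fall among those called, up to 5 called against the family's median direction, and a list of stalk, 5S particle, paralogous, kinase-target and highest-level members. RPS7, RPL27A, RPS3A, RPS19, RPL9 and others that complete a count were named after their values were seen. Results of some members are not reported here by name.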

Additional observations from a re-analysis of the deposited data

Results flagged for a closer look

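Single libraries lay far from the other 3 of their group in 62 of 830 sets of 4 libraries (7.47%), where chance gives about 1 in 20. Of these, 16 were in the shallow Kyse30 invasive replicate 1 and 15 in FaDu cetuximab replicate 2. Among the members described gene by gene, that FaDu cetuximab library stood apart low for RPS7 (32.8 CPM), RPS29 (999 CPM), RPL36AL (150.3 CPM) and RPL26L1 (24.9 CPM) and high for RPS9 (1181 CPM) and RPS4X (1057 CPM). Kyse30 cetuximab replicate 1 stood apart low for RPSA (33.2 CPM) and high for RPL23A (198 CPM), and the shallow library stood apart low for RPL23A (2.15 CPM), RPS9 (178 CPM) and RPS29 (904 CPM).

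The other single values were RPL12 at 416 CPM in FaDu MEK inhibitor replicate 1, RPLP1 at 1696 CPM in Kyse30 MEK inhibitor replicate 3, RPL26 at 800.4 CPM in FaDu non-invasive replicate 1, RPS6 at 1656 CPM in FaDu non-invasive replicate 2, RPL5 at 2275 CPM and RPS27 at 225 CPM in Kyse30 non-invasive replicates 4 and 1, and RPLP2 at 2478 CPM and RPS27 at 237 CPM in FaDu serum-free replicate 3.

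Between the cell lines, the change of non-invasive cells against serum-free spheroids differed for RPSA by -1.20 log2 units, Kyse30 minus FaDu, by edgeR's interaction test. What sets these libraries and lines apart was not tested.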

How the results depend on the processing

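The Kyse30 counts depend on the shallow library. Without it the counts were 0, 12, 12, 31, 23, 17 and 50 in the order of comparisons used below, against 0, 1, 3, 6, 2, 2 and 13. Counts of members called follow, with the reported count in parentheses. In FaDu, DESeq2 gave 3 for invasive against non-invasive (1) and 21 for cetuximab against non-invasive (12), for which limma-voom gave 20. Fits of only the groups compared gave 2, 45 for non-invasive against serum-free (25), and 4 for cetuximab against non-invasive. Total counts gave 14 for MEK inhibitor against non-invasive (34). Scaling to the ribosomal protein sum, which removes the family's common change by construction, gave 3 for cetuximab and 5 for MEK inhibitor against non-invasive, 5 for MEK inhibitor against cetuximab (62), and 22 and 10 for cetuximab (50) and MEK inhibitor (23) against serum-free. Under it FaDu MEK inhibitor against cetuximab turned to 0.15 for RPL22, 0.053 for RPL7L1, 0.16 for RPLP1, 0.038 for RPLP2 and 0.16 for RPSA.

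In Kyse30, non-invasive against serum-free (1) gave 7 with DESeq2, 5 with RLE factors, 5 scaled to the family, 5 with voom, 0 with pseudogene counts added, 4 without the high-MALAT1 libraries and 11 with only the groups compared. Cetuximab against non-invasive (3) gave 5 with DESeq2 and 6 without the high-MALAT1 libraries. MEK inhibitor against non-invasive (6) gave 1 with total counts, 0 scaled to the family, 13 with voom, 39 without the high-MALAT1 libraries and 28 with only the groups compared. MEK inhibitor against cetuximab (2) gave 9 with DESeq2, 1 with total counts, 0 with TMM factors that leave out ribosomal protein and mitochondrial genes, 1 scaled to the family, 8 with voom, 1 with pseudogene counts added, 27 without the high-MALAT1 libraries and 17 with only the groups compared. Cetuximab against serum-free (2) gave 8 (DESeq2), 1 (those TMM factors), 5 (family), 6 (voom), 22 (high-MALAT1) and 11 (only the groups), and MEK inhibitor against serum-free (13) gave 22 with DESeq2, 2, 8, 4, 55 and 67 with total counts, those TMM factors, family scaling, without the high-MALAT1 libraries and with only the groups. The replicate block gave 1 for MEK inhibitor against cetuximab and 1 for cetuximab against serum-free. No label says that replicate numbers pair samples. Of these 2 comparisons, all 4 same-numbered pairs of libraries deviated together (correlations over 0.1) in the first only. The block moved no other within-line count of called members by over 1.5 times. Every fit without the high-MALAT1 libraries also left out the shallow library, here and for the differences between lines. The Kyse30 fits of only the groups compared did so too, as none of those listed here held invasive cells. Their counts are thus to be read beside those without the shallow library alone, given first in this section. The cause of the moves in all these counts was not tested.

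For the differences between lines, non-invasive against serum-free (2) gave 5 with DESeq2 and 4 with voom, cetuximab against non-invasive (0) gave 4, 4, 1 with the replicate block and 8 without the high-MALAT1 libraries, and MEK inhibitor against non-invasive (0) gave 1, 1 and 2 with DESeq2, voom and without those libraries. Leaving out 1 library at a time gave, in FaDu, 0 to 1 for invasive against non-invasive, 18 to 24 for non-invasive against serum-free, 2 to 22 for cetuximab and 22 to 37 for MEK inhibitor against non-invasive, 52 to 69 for MEK inhibitor against cetuximab, and 40 to 53 and 9 to 24 for cetuximab and MEK inhibitor against serum-free. In Kyse30 the ranges in the same order were 0 to 0, 0 to 12, 0 to 12, 1 to 31, 0 to 23, 0 to 17 and 3 to 50, and for the differences 0 to 0, 0 to 9, 0 to 7, 0 to 1 and 0 to 1. Over 107 results of single members, 1593 alternative values kept direction and side of the threshold, 357 kept direction but no longer passed, and the 5 above turned.

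Shares of counts without mitochondrial transcripts and MALAT1 in the total moved by more than 1 SD to 9.45% in invasive, 10.1% in non-invasive and 11.4% in serum-free FaDu, and to 7.64% with MEK inhibitor, 9.69% with cetuximab and 11.1% in serum-free spheroids of Kyse30. The other groups were then at 9.34% with MEK inhibitor and 12.6% with cetuximab in FaDu. In Kyse30 they were at 9.23% in invasive and 9.05% in non-invasive cells. FaDu cetuximab libraries, at 11.1% to 13.7%, overlapped the serum-free ones, at 11.2% to 11.8%.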

Other observations

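The 137 pseudogene rows of the family took 0.544% to 1.07% of FaDu counts and 0.384% to 0.896% of Kyse30 counts. Of 133 pseudogenes tested in FaDu, 24 were lower and 0 higher with the MEK inhibitor than with cetuximab. Of all genes tested 11.2% were called lower and 8.54% higher there. The pseudogenes' median log2 fold change was -0.48, beside -0.60 for the 83 members. Reads of a member and of its pseudogenes cannot be told apart where they are near-identical, so these are not separate measurements.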
